A study of Mus musculus with 14 samples.

Results

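Transcripts of maturing red cells were set against those of the less mature and other blood cells of the same Prmt5-deleted mouse fetal livers. The comparison rests on 4 of the 14 RNA sequencing samples of the series, namely the Ter119pos and Ter119neg fractions of 2 mice of genotype PRMT5fl/fl; Vav-cre (KO) at E14.5, described across all genes. Each of mouse 1 and mouse 2 gave both fractions. Matched fractions of PRMT5fl/fl livers without the recombinase (WT), also at E14.5, gave 4 more libraries, from mice 3, 4 and 5, and mouse 4 gave both of its fractions. All 5 mice thus carry floxed Prmt5 alleles, and KO differs from WT by Vav-cre as well as by the deletion. Vav-cre is active in blood cells and not in hepatoblasts, so any liver cells in a fraction are not expected to lose the gene. The sorted LK cells of the series were not used here.

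Prmt5 encodes the main enzyme that places symmetric dimethylarginine on histones and on proteins of the splicing machinery, and its loss is known to raise p53 activity and to arrest blood cell formation. The fetal liver at this stage is chiefly an erythroid organ. Ter119 is a surface antigen that appears on erythroblasts as they mature, so sorting on it separates hemoglobin-making cells from progenitors, myeloid cells and liver parenchyma. Normal erythroblasts raise globin, heme and membrane protein transcripts, shut down progenitor genes, divide a few more times and then clear their nucleus and organelles.

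Libraries held between 19880052 and 29652947 counts. Levels are given as CPM, depth-scaled counts after TMM scaling, which sets library sizes so that most genes centre on no change. A gene is called higher or lower where the adjusted p of edgeR's quasi-likelihood test is under 0.05 over 15566 genes. The 4 KO libraries differed in composition: the 7SL RNA took 19.3% and 21.9% of counts in Ter119neg and 25.9% and 25.3% in Ter119pos, against 4.28% and 4.63% in Ter119pos WT. The globins took 0.12% and 0.183% against 16.4% and 18.3%. Scaling by total counts alone moved KO log2 fold changes by a median of -1.74, and where that turns a direction it is said beside the result. Bulk RNA cannot tell fewer cells of a type from less RNA per cell.

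In KO livers the fractions differed at most tested genes. Of 15566 genes, 62.6% were called, 30.3% higher and 32.3% lower in Ter119pos than in Ter119neg. These shares are the background beside which each count of called list members below is to be read, where the count is from this main fit. Scaled by total counts alone, 921 genes were called higher and 12270 lower, which is the background of list counts by total counts alone. Genes called with at least a 4-fold difference made up 8.17% higher and 9.71% lower. The KO libraries did not overlap between fractions for 12756 of the 15566 tested genes, called or not.

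**Figure D1:**
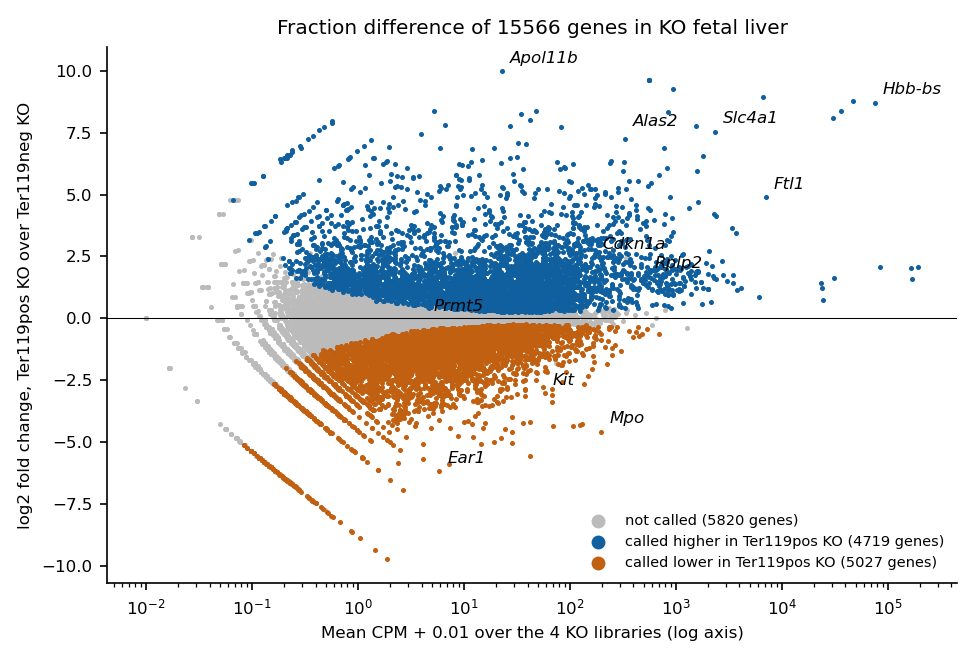
Log2 fold change between Ter119pos and Ter119neg KO libraries (y axis) against the mean CPM of the 4 KO libraries plus 0.01 (x axis, log scale), 1 point per tested gene. Blue points are the 4719 genes called higher in Ter119pos, orange points the 5027 called lower, and grey points were not called; streaks at low CPM are genes at 0 in 1 fraction. Globins lie at the upper right and Mpo, a granulocyte gene, at the lower right. Most small positive values turn negative by total counts alone, which moves values by a median of -1.74.

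Prmt5 (chr14:54507187-54517525, GRCm38) checked the genotype labels. It stood at 4.51 and 4.26 CPM in Ter119neg KO and 3.64 and 4.92 CPM in Ter119pos KO, against 52.3 and 51.8 CPM in Ter119neg WT and 13.8 and 17.7 CPM in Ter119pos WT. All 4 KO libraries lay below all 4 WT libraries. Between KO fractions no change was called (log2 fold change -0.05, SE 0.19, adjusted p = 0.834), and the sign of this small value turns with the scaling. In WT the fraction difference was -1.72 (adjusted p = 1.99e-07). Xist and the Y-linked genes checked the mouse labels: Xist was at 0.990 and 0.980 CPM in the fractions of mouse 1 and 372 and 462 CPM in those of mouse 2, and Ddx3y was at 20.8 and 49.4 CPM and at 0 and 0. The libraries of a mouse thus match in sex. The KO mice differ from each other in it, and no WT library shows Xist above 1.80 CPM.

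Genes of the sort followed the Ter119 label. Slc4a1, the band 3 anion exchanger that anchors the membrane skeleton, was at 22.4 and 27.5 CPM in Ter119neg and 5008 and 4263 CPM in Ter119pos (log2 fold change 7.54, SE 0.26, adjusted p = 3.97e-10). On the other side Kit, the stem cell factor receptor, was at 110.1 and 96.4 CPM in Ter119neg and 11.4 and 14 CPM in Ter119pos (log2 fold change -3.03, SE 0.14, adjusted p = 2.47e-09). Cd34, a surface sialomucin of progenitors, was at 39.7 and 35.1 CPM in Ter119neg and 3.99 and 4.4 CPM in Ter119pos (log2 fold change -3.16, SE 0.16, adjusted p = 7.26e-09). The fractions did not overlap for any of these genes.

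**Figure D2:**
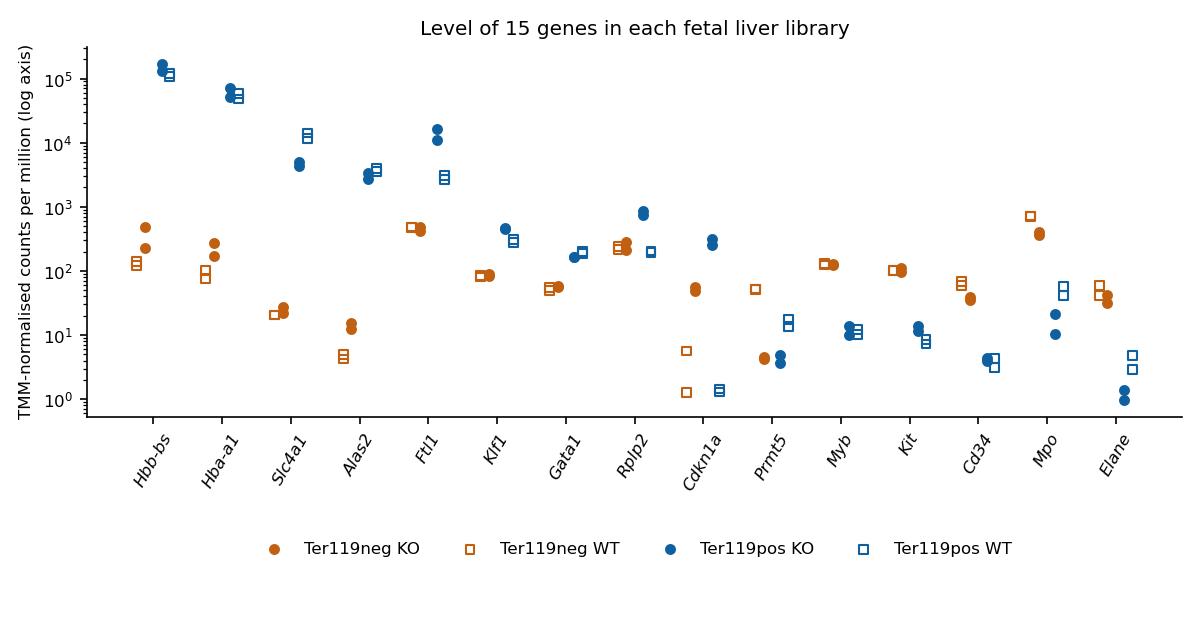
CPM of 15 genes (y axis, log scale) in each of the 8 fetal libraries, filled circles for KO and open squares for WT, orange for Ter119neg and blue for Ter119pos. Red cell genes on the left are higher in Ter119pos in both genotypes, progenitor and granulocyte genes on the right are lower, and Prmt5 is low in all 4 KO libraries. Cdkn1a separates the genotypes in both fractions; by total counts alone the Gata1 and Rplp2 differences in KO turn negative.

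The promoters of 6 genes of red cell lists show where a motif that GATA1 can bind lies before the start of genes that differ between fractions. They are the 6 with the largest fold change among 9 called members whose 250 bases before the start hold AGATAA on either strand, with no annotated exon in the window and not on a chromosome left out of the rule; other members of these lists had larger fold changes. The sequences are from RefSeq on GRCm38.p6, 5′ to 3′ toward the start, with the motif in capitals (TTATCT where it lies on the other strand). Trim10 (chr17:36869324-36869573, plus strand) and Atg4d (chr9:21265035-21265284, plus strand) belong to the autophagy and organelle clearance list. Rhd (chr4:134864286-134864535, plus strand) and Mpp1 (chrX:75131017-75131266, minus strand) are membrane genes, Pklr (chr3:89135892-89136141, plus strand) a red cell enzyme gene and Tal1 (chr4:115056176-115056425, plus strand) a transcription factor gene.
Trim10: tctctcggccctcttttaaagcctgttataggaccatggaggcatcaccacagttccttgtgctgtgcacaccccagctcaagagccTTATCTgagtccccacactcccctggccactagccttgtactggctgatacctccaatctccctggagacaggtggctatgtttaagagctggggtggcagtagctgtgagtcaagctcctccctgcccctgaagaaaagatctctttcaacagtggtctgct
Rhd: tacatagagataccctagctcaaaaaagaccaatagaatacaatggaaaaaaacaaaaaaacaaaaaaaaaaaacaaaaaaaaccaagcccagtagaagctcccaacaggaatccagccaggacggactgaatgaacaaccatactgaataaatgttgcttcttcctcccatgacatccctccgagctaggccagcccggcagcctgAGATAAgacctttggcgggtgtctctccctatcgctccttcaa
Mpp1: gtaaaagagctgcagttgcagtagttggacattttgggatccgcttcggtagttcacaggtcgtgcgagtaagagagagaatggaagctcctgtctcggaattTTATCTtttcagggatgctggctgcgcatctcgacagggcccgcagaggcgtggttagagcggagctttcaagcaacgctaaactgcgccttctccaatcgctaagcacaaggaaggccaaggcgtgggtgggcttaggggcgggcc
Atg4d: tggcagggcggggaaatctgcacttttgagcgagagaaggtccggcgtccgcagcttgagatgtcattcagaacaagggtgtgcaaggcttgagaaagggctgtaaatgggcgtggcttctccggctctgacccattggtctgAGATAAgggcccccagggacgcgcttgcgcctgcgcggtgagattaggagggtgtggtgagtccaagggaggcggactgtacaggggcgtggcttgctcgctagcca
Pklr: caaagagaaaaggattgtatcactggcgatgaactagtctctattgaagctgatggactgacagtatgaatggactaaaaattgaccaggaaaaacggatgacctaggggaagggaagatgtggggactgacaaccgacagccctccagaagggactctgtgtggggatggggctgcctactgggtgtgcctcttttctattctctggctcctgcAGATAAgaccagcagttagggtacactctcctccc
Tal1: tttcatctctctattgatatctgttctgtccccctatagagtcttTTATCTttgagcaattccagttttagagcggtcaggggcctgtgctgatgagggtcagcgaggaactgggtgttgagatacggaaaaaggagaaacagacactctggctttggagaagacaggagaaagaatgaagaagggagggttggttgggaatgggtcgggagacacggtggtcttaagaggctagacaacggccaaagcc
The motif began 163 bases before the start in Trim10, 43 in Rhd, 147 in Mpp1, 107 in Atg4d, 35 in Pklr and 205 in Tal1. The log2 fold changes of these genes in KO were 7.23, 3.79, 3.11, 2.93, 2.90 and 2.39 in that order. Of 120 called genes in 8 red cell lists with a promoter in the table, 15 held AGATAA (12.5%), against 6.11% of the 10200 promoters of all tested genes. Among genes called higher the share was 5.67%, and among genes called lower it was also 5.67%. The CACCC-type motif CCNCNCCC, bound by KLF1 among others, was in 64.6% of promoters of genes called higher, 65.5% of those called lower and 63.2% of all. GAGGAAGT, an ETS motif of the PU.1 kind, was in 1.97%, 3.00% and 2.45%. TTTCCCGC, an E2F motif, was in 1.83%, 1.65% and 1.72%. Both strands were searched for each motif, each motif was counted on its own even where matches of different motifs overlap, and a match is a description of the letters and not a binding site.

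The globin genes had the largest median fold change of the 35 lists described. All 9 tested globins were called higher in Ter119pos KO (background 30.3%), with log2 fold changes from 6.49 to 9.27 and a median of 8.40, against -0.12 over all tested genes. Their summed level was 741 and 1346 CPM in Ter119neg KO and 340600 and 448000 CPM in Ter119pos KO. Hbb-bs (chr7:103826534-103828096), an adult beta globin, was at 231 and 486 CPM in Ter119neg and 131000 and 169500 CPM in Ter119pos (log2 fold change 8.71, SE 0.47, adjusted p = 1.03e-08). Hba-a1 (chr11:32283511-32284465), an adult alpha globin, was at 171 and 274 CPM in Ter119neg and 51320 and 70130 CPM in Ter119pos (log2 fold change 8.09, SE 0.39, adjusted p = 4.64e-09). The second library of Ter119neg KO, from mouse 2, held more of both than the first. Hbb-bs and Hbb-bt, Hba-a1 and Hba-a2, and Hbq1a and Hbq1b are near-identical pairs, so the split of reads within each pair is uncertain.

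Embryonic globins rose with the adult ones. Hbb-y, the embryonic epsilon-type beta globin, was at 21.5 and 31.4 CPM in Ter119neg KO and 11650 and 14760 CPM in Ter119pos KO (log2 fold change 8.96, SE 0.53, adjusted p = 2.54e-08). Hbb-bh1, a beta-like gene of yolk sac erythrocytes, was at 2.75 and 3.33 CPM in Ter119neg and 1771 and 1978 CPM in Ter119pos (log2 fold change 9.27, SE 0.28, adjusted p = 2.22e-10). Hba-x, the embryonic zeta globin, was at 5.25 and 5.11 CPM in Ter119neg and 1566 and 1803 CPM in Ter119pos (log2 fold change 8.34, SE 0.40, adjusted p = 4.50e-09). Among beta-type counts, Hbb-y and Hbb-bh1 made up 6.15% (95% Wilson interval 5.77% to 6.56%) and 4.32% (4.09% to 4.55%) in Ter119neg KO. In Ter119pos KO their share was 5.92% (5.89% to 5.94%) and 5.75% (5.73% to 5.77%), between the 2 Ter119neg values. In WT the share was 5.24% (4.87% to 5.63%) and 10.7% (10.1% to 11.3%) in Ter119neg, and 0.633% (0.6245% to 0.642%) and 1.52% (1.502% to 1.53%) in Ter119pos. The intervals cover counting error only. The WT fractions thus did not overlap in this share, while the KO fractions did. The fraction difference was larger in KO than in WT for each gene: by 2.32 (SE 0.54, adjusted p = 0.00484) for Hbb-y, by 1.83 (SE 0.33, adjusted p = 8.26e-04) for Hbb-bh1 and by 2.09 (SE 0.44, adjusted p = 0.00249) for Hba-x. Hbb-bs had a difference of -1.06 (SE 0.47, adjusted p = 0.0919), which was not called. By total counts alone the Hbb-bs difference was -1.60 (adjusted p = 1.32e-04), which was called, and by DESeq2 -1.03 (adjusted p = 0.140), which was not. Hba-a1 had a difference of -1.12 (SE 0.41, adjusted p = 0.0446), which was called lower in KO. Hbb-bt and Hba-a2 had -0.77 and -0.97, which were not called. With the mouse as a block, where WT rests on mouse 4 alone, the Hbb-bs difference was -1.01. At this stage the embryo's circulation still holds nucleated yolk sac erythrocytes, which make these globins, and their part in the result was not tested.

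Heme synthesis moved with the globins. Of 16 tested genes, 15 were called higher and 1 lower, with a median of 3.95 and summed levels of 858 and 929.7 CPM in Ter119neg and 14430 and 14810 CPM in Ter119pos. Alas2, the erythroid form of the first and rate-limiting enzyme, was at 12.5 and 15.3 CPM in Ter119neg and 2727 and 3414 CPM in Ter119pos (log2 fold change 7.79, SE 0.25, adjusted p = 2.50e-10). Alas1, the form used by other cells, was the member called lower and is named after its values were seen, at 31.3 and 38.4 CPM in Ter119neg and 4.06 and 3.19 CPM in Ter119pos (log2 fold change -3.25, SE 0.17, adjusted p = 7.55e-09). Slc25a37 (mitoferrin 1), which brings iron into mitochondria, had a log2 fold change of 5.93, and Slc25a39, a mitochondrial carrier, one of 4.53. Uros, the fourth enzyme of the pathway, was close between mice, at 13.2 and 13.7 CPM in Ter119neg and 199 and 201 CPM in Ter119pos.

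Iron genes were divided. Of 17, 9 were called higher and 5 lower, and by total counts alone 4 and 13. Log2 fold changes ran from -1.99 to 4.90 with a median of 0.53, and the genes named here are all from the higher side. Ftl1, the ferritin light chain that stores iron, was at 423 and 489 CPM in Ter119neg and 11090 and 16160 CPM in Ter119pos (log2 fold change 4.90, SE 0.25, adjusted p = 6.48e-09). Ncoa4, the receptor that sends ferritin for degradation, had a log2 fold change of 3.80, Tfrc, the transferrin receptor, one of 3.47, and Fth1, the ferritin heavy chain, one of 3.33. The Ftl1 difference was larger in KO than in WT, by 2.34 (SE 0.30, adjusted p = 9.84e-05), and for Tfrc the KO minus WT difference was -0.71 (SE 0.23, adjusted p = 0.0251), which was not called with the transcript length trend removed (adjusted p = 0.0618).

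Genes of the red cell membrane and its spectrin skeleton were mostly called higher, 22 of 26 with 4 lower and a median of 2.69. Slc2a1, the glucose transporter GLUT1, was at 25.4 and 23.8 CPM in Ter119neg and 1787 and 1489 CPM in Ter119pos (log2 fold change 6.06, SE 0.20, adjusted p = 2.67e-10). Tmod1, which caps actin filaments of the skeleton, was at 2.8 and 2.37 CPM in Ter119neg and 95.8 and 98.6 CPM in Ter119pos (log2 fold change 5.23, SE 0.17, adjusted p = 2.50e-10). Dmtn (dematin), which bundles actin at the spectrin junctions, had a log2 fold change of 5.11. The fraction difference was lower in KO for 21 of 26 genes and higher for 0 (background 22.4% lower and 19.3% higher), with a WT median of 3.91. Slc4a1, at 14110 and 11760 CPM in Ter119pos WT, had a difference of -1.76 (SE 0.28, adjusted p = 3.76e-04). Over all genes the difference between genotypes was called for 41.7%.

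Among erythroid transcription factors, 16 of 23 were called higher and 4 lower, with a median of 1.53 that became -0.22 by total counts alone. Klf1, which activates adult beta globin and many red cell genes, was at 82.7 and 90.7 CPM in Ter119neg and 472 and 456 CPM in Ter119pos (log2 fold change 2.42, SE 0.14, adjusted p = 1.60e-08). Gata1, the central erythroid regulator, was at 58.3 and 56.4 CPM in Ter119neg and 167 and 164 CPM in Ter119pos (log2 fold change 1.53, SE 0.11, adjusted p = 2.11e-07), a rise that by total counts alone was a difference of -0.22. Nfe2, which acts at the globin locus control region, had a log2 fold change of 3.44, and Foxo3, which drives late erythroid and antioxidant genes, one of 2.77. Sox6 and Bcl11a are known as repressors of embryonic globins. Sox6 was at 4.45 and 5.72 CPM in Ter119neg KO and 177 and 167 CPM in Ter119pos KO (log2 fold change 5.08, SE 0.19, adjusted p = 6.06e-10), against 698 and 562 CPM in Ter119pos WT. Its fraction difference in KO minus that in WT was -2.05 (SE 0.23, adjusted p = 4.89e-05). Bcl11a was called lower in Ter119pos KO, at 69.7 and 67.6 CPM in Ter119neg and 40.4 and 35.6 CPM in Ter119pos (log2 fold change -0.85, SE 0.11, adjusted p = 1.76e-05), and was not called between WT fractions (0.23, adjusted p = 0.0538), with a difference of -1.09 (SE 0.15, adjusted p = 1.36e-04). Myb and Gata2, factors of progenitors, fell, with log2 fold changes of -3.40 and -3.77.

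The erythropoietin receptor list held 8 genes called higher and 7 lower of 16, and by total counts alone 5 and 10. Epor, the receptor, was at 28.4 and 25.2 CPM in Ter119neg and 92.4 and 73.8 CPM in Ter119pos (log2 fold change 1.63, SE 0.14, adjusted p = 7.63e-07), and Jak2, its kinase, at 23.1 and 24.8 CPM in Ter119neg and 51.7 and 52.6 CPM in Ter119pos (log2 fold change 1.12, SE 0.11, adjusted p = 2.93e-06). Epor and Jak2 by total counts alone had -0.11 and -0.62. Some targets of the pathway and the brake Socs3 were higher. Bcl2l1 (Bcl-xL), the survival factor of erythroblasts, was at 13.6 and 12.2 CPM in Ter119neg and 407 and 424 CPM in Ter119pos. Pim1, a survival kinase, had a log2 fold change of 3.92 and Socs3, a feedback inhibitor, one of 3.98. Other members went the other way. Values in the list ran from -6.63 to 5.005, with 5 genes called higher and 4 lower by at least 4-fold. Stat5a, which carries the signal to the nucleus, fell (-2.47). The KO minus WT difference was -0.91 (SE 0.20, adjusted p = 0.00273) for Epor and -1.59 (SE 0.16, adjusted p = 2.43e-05) for Jak2.

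Of 22 red cell enzyme and antioxidant genes, 20 were called higher and 2 lower, with a median of 2.67. Bpgm, which makes the hemoglobin ligand bisphosphoglycerate, was at 7.7 and 8.3 CPM in Ter119neg and 513 and 764 CPM in Ter119pos (log2 fold change 6.32, SE 0.23, adjusted p = 5.49e-10). Blvrb, a flavin and biliverdin reductase, had a log2 fold change of 4.44, Prdx2, a red cell peroxidase, one of 4.23, and Car2, carbonic anhydrase, one of 4.11. Autophagy and organelle clearance genes, used as red cells lose their mitochondria and ribosomes, were called higher for 27 of 32 and lower for 4, with a median of 3.03. Genes of the ubiquitin system were among them. Trim10, a TRIM family gene, was at 3.74 and 5.03 CPM in Ter119neg and 638 and 681 CPM in Ter119pos (log2 fold change 7.23, SE 0.20, adjusted p = 1.89e-10), and Ube2l6, Ube2h and Ube2o, ubiquitin-conjugating enzymes, had log2 fold changes of 5.96, 5.21 and 5.46. Bnip3l (Nix), the receptor for clearance of mitochondria, was at 52.8 and 76.7 CPM in Ter119neg and 822 and 1131 CPM in Ter119pos.

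**Figure D3:**
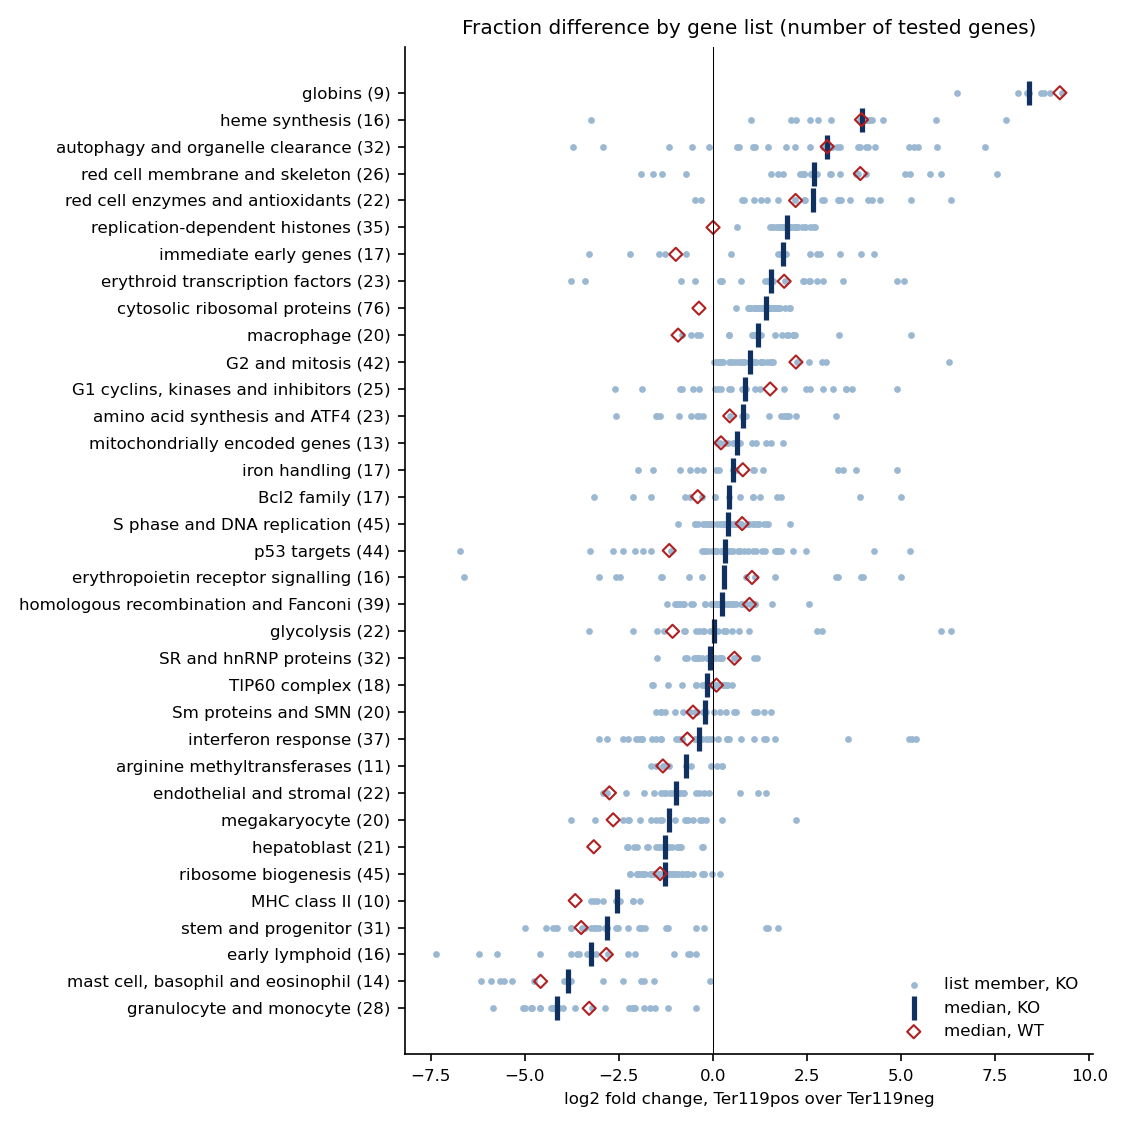
Log2 fold change between Ter119pos and Ter119neg (x axis) for the tested genes of 35 lists (rows, with the number of tested genes). Pale dots are members in KO, dark bars their KO medians and open diamonds the WT medians. Most red cell lists lie on the right and granulocyte, mast cell and lymphoid lists on the left in both genotypes. The iron and erythropoietin receptor lists have KO medians of only 0.53 and 0.30. Ribosomal proteins, histones and macrophage genes have positive KO medians beside WT medians near or below 0. By total counts alone the KO medians of 14 lists turn negative, erythroid transcription factor, ribosomal protein and macrophage genes among them.

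Beyond the lists, the largest called rises among genes with a mean of at least 5 CPM included Apol11b, an apolipoprotein L gene, at 0.055 and 0.0266 CPM in Ter119neg KO and 41.6 and 49.4 CPM in Ter119pos KO (log2 fold change 9.98, SE 0.28, adjusted p = 1.89e-10). Hsd3b6, a steroid dehydrogenase gene, was at 0.247 and 0.319 CPM in Ter119neg and 83 and 109 CPM in Ter119pos (log2 fold change 8.38, SE 0.25, adjusted p = 1.99e-10). Chga (chromogranin A), known from secretory granules of endocrine cells, was at 0.193 and 0.239 CPM in Ter119neg and 59.1 and 77.9 CPM in Ter119pos (log2 fold change 8.28, SE 0.23, adjusted p = 1.89e-10), against 3.07 and 2.65 CPM in Ter119pos WT. Its fraction difference was larger in KO by 3.11 (SE 0.74, adjusted p = 0.00509). Rnu3b2, a U3 small nucleolar RNA with identical copies, was at 2.83 and 0 CPM in Ter119neg and 868 and 1391 CPM in Ter119pos, with reads that cannot be assigned to 1 copy.

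Progenitor genes were lower in Ter119pos. Of 31 stem and progenitor genes, 27 were called lower (background 32.3%) and 3 higher, with a median of -2.83. Myb, needed for progenitor growth, was at 127 and 123 CPM in Ter119neg and 10.1 and 13.8 CPM in Ter119pos (log2 fold change -3.40, SE 0.15, adjusted p = 2.52e-09), and Ikzf2 (Helios) at 17.6 and 19.1 CPM in Ter119neg and 1.68 and 2.24 CPM in Ter119pos. The 3 called higher were Lmo2, a factor that erythroid cells also use, Tek and Esam, and by total counts alone none was; Lmo2 and Esam were chosen after their values were seen. Tek (TIE2), a receptor of stem and endothelial cells, was at 5.66 and 5.05 CPM in Ter119neg KO and 14.7 and 13.6 CPM in Ter119pos KO (log2 fold change 1.40, SE 0.17, adjusted p = 1.65e-05), a direction that turned to -0.34 by total counts alone. In WT it was at 3.46 and 2.72 CPM in Ter119neg and 0.12 and 0.235 CPM in Ter119pos, so the fractions lay in opposite orders in the 2 genotypes, with a difference of 5.49 (SE 0.39, adjusted p = 5.24e-06). Esam, an adhesion molecule of the same cells, was at 1.46 and 1.12 CPM in Ter119neg and 4.34 and 4.14 CPM in Ter119pos in KO (1.72, which by total counts alone was -0.03) and had -3.17 in WT.

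Granulocyte and monocyte genes fell together, 27 of 28 called lower and 0 higher, with a median of -4.15. Mpo, the myeloperoxidase of neutrophil granules, was at 366 and 398 CPM in Ter119neg and 10.4 and 21.6 CPM in Ter119pos (log2 fold change -4.59, SE 0.29, adjusted p = 4.17e-08). Elane, neutrophil elastase, was at 31.4 and 42.7 CPM in Ter119neg and 0.98 and 1.38 CPM in Ter119pos (log2 fold change -4.99, SE 0.32, adjusted p = 4.83e-08). Ctsg, Lcn2, Ngp and Camp, further granule genes, had log2 fold changes of -4.85, -4.80, -5.05 and -4.60. The summed level of the list was 1212 and 1704 CPM in Ter119neg KO and 74.3 and 148 CPM in Ter119pos KO, so mouse 2 held more of it in both fractions. Eosinophil and mast cell genes fell with them, 11 of 14. Prg2, the eosinophil major basic protein, was at 61 and 104 CPM in Ter119neg and 0.84 and 2.85 CPM in Ter119pos (log2 fold change -5.56, SE 0.42, adjusted p = 2.03e-07), and Ear6, an eosinophil ribonuclease, at 12.3 and 16.1 CPM in Ter119neg and 0.21 and 0.259 CPM in Ter119pos. Of 20 megakaryocyte genes, 11 were called lower and 1 higher, with Gp5, a platelet receptor subunit, lower (-2.39) and Tubb1, the platelet beta tubulin, the member called higher (2.20). Scaled by total counts, no megakaryocyte gene was called higher and 19 were lower. Early lymphoid genes were called lower for 11 of 16 (7 without both libraries of mouse 2), with Flt3, a cytokine receptor of lymphoid and myeloid progenitors, at 7.89 and 5.96 CPM in Ter119neg and 0.42 and 0.604 CPM in Ter119pos. All 10 class II antigen presentation genes were called lower, a count that was 6 without the Ter119neg library of mouse 2, 4 without the Ter119pos library of mouse 1, and 5 and 6 without both libraries of mouse 1 and of mouse 2. H2-DMa went from 3.38 and 3.54 to 0.49 and 0.259 CPM.

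Liver markers were lower in Ter119pos but not gone, and how many were called depended on the mouse. Of 21 hepatoblast genes, 13 were called lower (background 32.3%) and 0 higher. The 13 became 8 without the Ter119neg library of mouse 1, 7 without its Ter119pos library and 3 without both. The list had sums of 298 and 154 CPM in Ter119neg KO and 68.1 and 97.2 CPM in Ter119pos KO. Apob, which carries liver lipoproteins, was at 23.6 and 10.4 CPM in Ter119neg and 3.5 and 4.92 CPM in Ter119pos (log2 fold change -2.03, SE 0.42, adjusted p = 0.0011), a call lost without both libraries of mouse 1 (-1.09, adjusted p = 0.0937). The fraction difference had a higher value in KO than in WT for 12 of 21 (8 by total counts alone, 18 without the Ter119neg library of mouse 1, 6 without the Ter119pos library of mouse 2 or without both of its libraries). The WT median was -3.17 against -1.28 in KO. Over all genes the higher values of the difference numbered 3001 in the main fit, and 1133, 3039, 2371 and 2577 in these settings in turn. Endothelial and stromal genes were called lower at a share near the background of 32.3%, 8 of 22 with 12 not called. Those lower included Eng (endoglin, -1.57) and Vim (vimentin, -2.87). The 2 called higher were Tek and Stab1, a scavenger receptor, named after its values were seen, and by total counts alone none was.

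Macrophage genes went the other way. Of 20, 13 were called higher in Ter119pos KO (8 without both libraries of mouse 1) and 2 lower (2 and 8 by total counts alone), with a median of 1.18 that by total counts alone was -0.56, beside -1.86 over all genes. Hmox1, the heme-degrading enzyme, which erythroblasts can also express, was at 5.47 and 7.71 CPM in Ter119neg KO and 178 and 326 CPM in Ter119pos KO (log2 fold change 5.25, SE 0.29, adjusted p = 1.47e-08), against 14.9 and 20.5 CPM in Ter119neg and 15.7 and 14 CPM in Ter119pos in WT. Lgmn, a lysosomal protease, was at 2.91 and 2.63 CPM in Ter119neg and 25.7 and 30.7 CPM in Ter119pos (log2 fold change 3.34, SE 0.17, adjusted p = 6.44e-09). Mrc1, the mannose receptor, was at 1.62 and 1.12 CPM in Ter119neg and 4.62 and 7.42 CPM in Ter119pos, and C1qc, a complement subunit, at 0.99 and 1.12 CPM in Ter119neg and 3.99 and 4.4 CPM in Ter119pos. The difference between genotypes was called for 15 of 20, all with a higher value in KO, and by total counts alone also for 15. Adgre1 (F4/80), which defines these cells and was named after its values were seen, was at 3.24 and 3.54 CPM in Ter119neg and 4.06 and 5.09 CPM in Ter119pos and was not called (log2 fold change 0.42, SE 0.28, adjusted p = 0.215), though it was with the mouse as a block (adjusted p = 0.0291). The direction of Adgre1 turned to -1.32 by total counts alone, and to -0.55 by totals of protein-coding genes without globins. The summed list was 52 and 50.1 CPM in Ter119neg KO and 255 and 426 CPM in Ter119pos KO, against 189.8 and 212 CPM in Ter119neg and 136 and 91.1 CPM in Ter119pos in WT. Hmox1 alone supplied 178 and 326 CPM of the Ter119pos KO sums, and 15.7 and 14 CPM of those in Ter119pos WT. The sums thus mostly follow Hmox1 in Ter119pos KO and do not measure the list as a whole. Fetal liver macrophages sit at the centre of erythroblast islands, and whether they were carried through the sort was not tested.

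Genes of the cell cycle were higher in Ter119pos under TMM scaling. Of 42 G2 and mitosis genes, 33 were called higher and 0 lower (5 and 33 by total counts alone), with a median of 0.98 that by total counts alone was -0.76. Cdc25b, a phosphatase that starts mitosis, was at 5.55 and 6.7 CPM in Ter119neg and 479 and 476 CPM in Ter119pos (log2 fold change 6.28, SE 0.20, adjusted p = 2.31e-10), and Ube2c, which acts with the anaphase-promoting complex, at 42.4 and 46 CPM in Ter119neg and 324 and 387 CPM in Ter119pos (log2 fold change 3.01, SE 0.16, adjusted p = 7.57e-09). The fraction difference was lower in KO than in WT for 36 of 42 genes and higher for 1, and by total counts alone lower for 41 and higher for 0. Mki67, the proliferation antigen, named here after its values were seen, was at 209 and 215 CPM in Ter119neg and 1237 and 1249 CPM in Ter119pos in KO and 342 and 376 CPM in Ter119neg and 10630 and 9144 CPM in Ter119pos in WT, a difference of -2.23 (SE 0.24, adjusted p = 3.96e-05). Of 45 S phase genes, 29 were called higher and 4 lower (0 and 41 by total counts alone), with a median of 0.41, or -1.35 by total counts alone. Rrm2, a ribonucleotide reductase subunit, was at 75.7 and 89.6 CPM in Ter119neg and 319 and 360.4 CPM in Ter119pos.

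Genes that time the exit from the cycle also differed. Of 25 G1 genes, 15 were called higher and 5 lower, and by total counts alone 8 and 16. E2f2, the main E2F of erythroblasts, was at 16.6 and 15.7 CPM in Ter119neg and 509.7 and 447 CPM in Ter119pos (log2 fold change 4.89, SE 0.17, adjusted p = 5.10e-10). Cdkn1b (p27), an inhibitor of cyclin-dependent kinases, was at 6.52 and 7.55 CPM in Ter119neg and 76.6 and 85.9 CPM in Ter119pos (log2 fold change 3.53, SE 0.15, adjusted p = 1.57e-09). Ccnd3, the D cyclin of erythroblasts, had a log2 fold change of 3.19.

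Homologous recombination and Fanconi genes, the repair route that the series is about, were divided, beside a background of 30.3% higher and 32.3% lower. Of 39, 17 were called higher (11 without both libraries of mouse 1) and 9 lower, and the median was 0.25, or -1.50 by total counts alone (1 higher, 37 lower). Brca1, a factor of repair by recombination, was at 25.3 and 25.8 CPM in Ter119neg and 54 and 52.5 CPM in Ter119pos (log2 fold change 1.06, SE 0.11, adjusted p = 3.24e-06), which by total counts alone was -0.68. In WT it was at 29.6 and 31.1 CPM in Ter119neg and 205 and 188 CPM in Ter119pos, and the KO minus WT difference was -1.64 (SE 0.15, adjusted p = 1.72e-05). Rad50, a subunit of the complex that first processes breaks, chosen after its values were seen, was called lower in Ter119pos KO, at 25.4 and 24.3 CPM in Ter119neg and 12.3 and 12.6 CPM in Ter119pos (log2 fold change -1.0, SE 0.11, adjusted p = 4.82e-06). In this list the fraction difference had a lower value in KO than in WT for 28 of 39 genes and a higher one for 1, Fance, also chosen after its values were seen. These were 32 and 0 by total counts alone, 18 and 1 without the Ter119neg library of mouse 1, and 14 and 0 without both libraries of mouse 2. Over all genes the lower values numbered 3490 in the main fit, and 5339, 2340 and 1872 in these settings in turn.

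The p53 targets had a higher summed level in each KO library than in any WT library, and some rose between KO fractions. Of 44, 21 were called higher in Ter119pos KO (13 without both libraries of mouse 1) and 8 lower, with a median of 0.32, or -1.42 by total counts alone. Their sum was 1131 and 1280 CPM in Ter119neg KO and 2494 and 2961 CPM in Ter119pos KO, against 421 and 346 CPM in Ter119neg and 776 and 753 CPM in Ter119pos in WT. Cdkn1a (p21), the cell cycle inhibitor most used as a p53 readout and named here after its values were seen, was at 48.6 and 55.3 CPM in Ter119neg KO and 256 and 315 CPM in Ter119pos KO (log2 fold change 2.46, SE 0.36, adjusted p = 7.42e-05). In WT it was at 5.66 and 1.29 CPM in Ter119neg and 1.44 and 1.29 CPM in Ter119pos, so the WT fractions overlapped. The fraction difference was larger in KO by 3.83 (SE 0.66, adjusted p = 6.25e-04), and by 2.45 with the mouse as a block, where WT rests on mouse 4 alone. Gadd45a and Btg2, growth arrest genes, rose in Ter119pos of both genotypes, by 5.22 and 4.29 in KO and 5.15 and 5.65 in WT. Bax, a pore-forming death protein, was at 37.8 and 42.6 CPM in Ter119neg and 65.3 and 66.3 CPM in Ter119pos in KO (log2 fold change 0.71, SE 0.11, adjusted p = 8.65e-05), which by total counts alone was -1.03, and at 19.1 and 16.9 CPM in Ter119neg and 13.1 and 14.1 CPM in Ter119pos in WT. The fraction difference had a higher value in KO than in WT for 20 targets and a lower one for 6 of 44 (background 19.3% and 22.4%), and by total counts alone for 16 and 9.

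In the Bcl2 family 9 of 17 were called higher and 4 lower, and by total counts alone 2 and 12. Survival members split. Bcl2l1 rose as given above and Mcl1 was at 47.1 and 53.7 CPM in Ter119neg and 169 and 182 CPM in Ter119pos (log2 fold change 1.80, SE 0.12, adjusted p = 7.50e-08), whereas Bcl2 itself was at 4.62 and 3.86 CPM in Ter119neg and 0.35 and 0.604 CPM in Ter119pos (log2 fold change -3.17, SE 0.33, adjusted p = 3.24e-06). Of the activators of death, Bid fell (-1.64) and Bbc3 (PUMA) rose (1.70, which by total counts alone was -0.06).

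Arginine methyltransferases and partners of PRMT5 were lower in Ter119pos KO for 7 of 11 tested, with 0 called higher. Prmt1, the main enzyme for asymmetric dimethylarginine, was at 82.4 and 80.6 CPM in Ter119neg and 27.3 and 29.7 CPM in Ter119pos (log2 fold change -1.52, SE 0.12, adjusted p = 2.61e-07). Wdr77 (MEP50), the obligate partner of PRMT5, was at 53.8 and 46.2 CPM in Ter119neg and 16.4 and 15.7 CPM in Ter119pos (log2 fold change -1.64, SE 0.11, adjusted p = 1.04e-07). Prmt7 and Clns1a (pICln), which brings Sm proteins to PRMT5, had -1.32 and -0.72. Of 20 genes for Sm proteins and the SMN complex, which use this methylation to assemble spliceosomes, 6 were called higher and 9 lower (0 and 18 by total counts alone). Of 32 SR and hnRNP genes, regulators of splice site choice, 4 were called higher and 10 lower (0 and 32 by total counts alone, 8 and 4 by TMM over protein-coding genes without globins). The 10 became 3 without the Ter119neg library of mouse 1, 4 without that of mouse 2, 6 without the Ter119pos library of mouse 1 and 3 without either mouse, with Srsf5 at 1.16 (-0.59 by total counts alone) and Hnrnpa0 at -1.49. The TIP60 acetyltransferase complex had 4 called higher and 7 lower of 18 (0 and 18 by total counts alone), among the lower ones Ruvbl2, its helicase, at -1.60. The main counts of the Sm and SMN, SR and hnRNP, and TIP60 lists stand beside a background of 30.3% higher and 32.3% lower. By total counts alone, 921 of all 15566 tested genes were called higher and 12270 lower. The genes called lower over all genes went from 5027 to 3449 without both libraries of mouse 1 and 3365 without those of mouse 2.

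Ribosomal protein genes all moved together in KO. All 76 were called higher in Ter119pos, with a median of 1.41 and summed levels of 30860 and 37290 CPM in Ter119neg and 79690 and 98790 CPM in Ter119pos. Scaled by total counts alone, 0 were called higher and 30 lower, with a median of -0.34 beside -1.86 over all genes. Rplp2, of the ribosomal stalk, was at 211 and 281 CPM in Ter119neg and 744 and 862 CPM in Ter119pos (log2 fold change 1.71, SE 0.17, adjusted p = 2.14e-06, which by total counts alone was -0.03) and at 242 and 217 CPM in Ter119neg and 204 and 196 CPM in Ter119pos in WT. In WT 1 of 76 was called higher and 35 lower, beside 5584 higher and 6292 lower of all 15566 tested genes. The fraction difference had a higher value in KO for all 76, and for 70 by total counts alone. Factors that build ribosomes went the other way, with 39 of 45 called lower and 0 higher. Rrp1b, a nucleolar factor, was at 54.9 and 46.3 CPM in Ter119neg and 11.4 and 10.3 CPM in Ter119pos (log2 fold change -2.22, SE 0.13, adjusted p = 2.77e-08), and Nop2, a ribosomal RNA methyltransferase, at 101 and 84.8 CPM in Ter119neg and 25.7 and 21.9 CPM in Ter119pos.

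Replication-dependent histone genes, whose transcripts lack poly(A) tails, were called higher for 34 of 35 and lower for 0, with a median of 1.97 against 0.0 in WT. Their sums were 9854 and 11090 CPM in Ter119neg KO and 45090 and 39410 CPM in Ter119pos KO. Hist1h1c, a linker histone, was at 538 and 573 CPM in Ter119neg and 3897 and 3319 CPM in Ter119pos (log2 fold change 2.70, SE 0.23, adjusted p = 5.62e-07). Many of these genes are near-identical copies and share reads. The fraction difference had a higher value in KO for all 35, and for 30 by total counts alone, where 9 of 35 were called higher in KO and 1 lower.

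Transcript length moved with these results. The eighth of genes with the shortest transcripts, with a median of 721 bases, had a median log2 fold change of 0.94 in KO and 0.03 in WT. In KO the next bins fell from 0.02 at 1517 bases to -0.40 at 7482 bases, whereas WT medians there lay between -0.36 and -0.08. With a per-library length trend removed, an alternative chosen after seeing the data, 74 of 76 ribosomal protein genes were still called higher, with a median of 0.94, and 33 of 35 histones, with 1 lower and a median of 1.17. The 13 mitochondrially encoded genes went from 9 higher and 0 lower to 4 and 4. As a share of all counts, mitochondrially encoded protein-coding genes were lower in Ter119pos KO. They took 0.976% and 0.861% in Ter119neg KO and 0.550% and 0.598% in Ter119pos KO. The part of transcript length in the results was not tested.

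**Figure D4:**
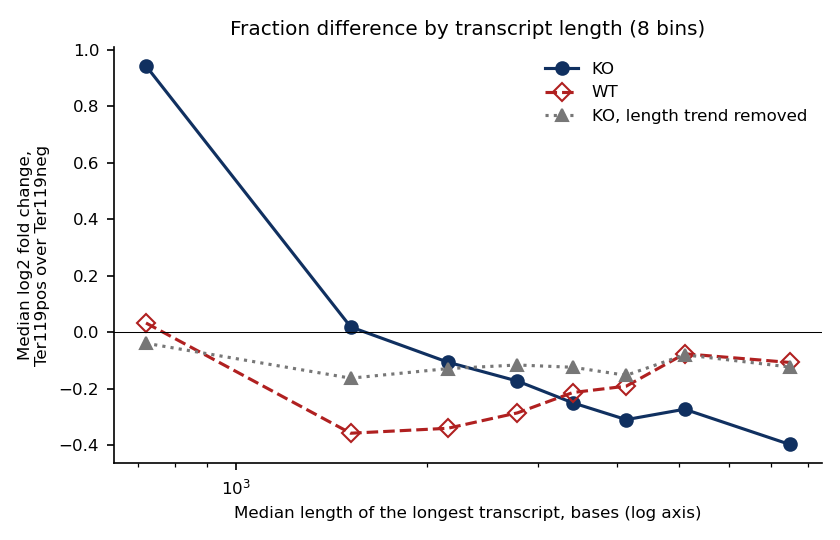
Median log2 fold change between fractions (y axis) in 8 bins of tested genes by the length of their longest annotated transcript (x axis, log scale), for KO, for WT and for KO after removal of a per-library length trend. The KO median falls from 0.94 in the shortest bin to -0.40 in the longest, and the WT medians stay between -0.36 and 0.03.

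Smaller groups followed neither pattern as a whole, and their main counts stand beside a background of 30.3% higher and 32.3% lower. Their counts by total counts alone stand beside 921 genes higher and 12270 lower of 15566. Of 22 glycolysis genes, 9 were called higher and 8 lower (4 and 18 by total counts alone), with Slc2a3 (GLUT3) at 33.7 and 29.5 CPM in Ter119neg and 222 and 212 CPM in Ter119pos in KO (log2 fold change 2.78, SE 0.14, adjusted p = 5.19e-09) and 32.6 and 29.3 CPM in Ter119neg and 22.5 and 28.4 CPM in Ter119pos in WT. Of 23 amino acid synthesis and ATF4 genes, 13 were called higher and 6 lower (1 and 12 by total counts alone), Mthfd2, a mitochondrial folate enzyme, with 1.96. Of 37 interferon response genes, 8 were called higher and 13 lower (4 and 27 by total counts alone), and the 13 became 8 without the Ter119neg library of mouse 2, 8 without mouse 1 and 7 without mouse 2. Oasl2, an antiviral gene, was at 0.193 and 0.399 CPM in Ter119neg and 10.1 and 13.5 CPM in Ter119pos (log2 fold change 5.28, SE 0.34, adjusted p = 5.88e-08), and Psmb8, an immunoproteasome subunit, fell (-3.02). Of 17 immediate early genes, 11 were called higher and 2 lower (6 and 6 by total counts alone). Zfp36, which destabilises short-lived messenger RNAs, was at 2.69 and 3.01 CPM in Ter119neg and 28.3 and 31.4 CPM in Ter119pos in KO (log2 fold change 3.38, SE 0.16, adjusted p = 3.09e-09) and fell in WT (-0.99), while Dusp1, a phosphatase of stress kinases, rose in both (3.94 in KO, 4.90 in WT).

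**Figure D5:**
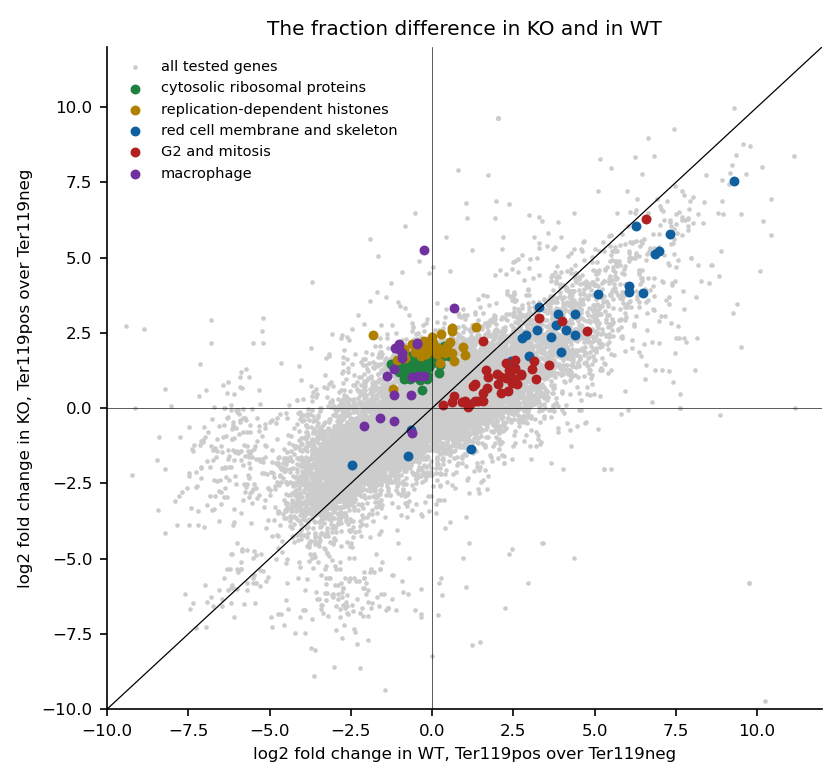
Log2 fold change between fractions in KO (y axis) against that in WT (x axis) for all tested genes in grey and 5 lists in colour; the diagonal marks equal values. Membrane and G2 and mitosis genes lie mostly below the diagonal, while ribosomal protein, histone and macrophage genes lie mostly above it; by total counts alone KO values of the ribosomal protein genes turn negative, with a median of -0.34.

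Over all genes most called differences were shared in direction with WT. Of genes called in both genotypes, 7510 had the same direction, 426 were higher in Ter119pos KO and lower in Ter119pos WT, and 227 were the reverse. The fraction difference itself differed between genotypes at 6491 genes, 3001 with a more positive and 3490 with a more negative value in KO, and by total counts alone 1133 and 5339. Tubb3, the neuronal class of beta tubulin, was at 3.08 and 2.47 CPM in Ter119neg and 73.3 and 111 CPM in Ter119pos in KO and 1.07 and 1.41 CPM in Ter119neg and 0.421 and 0.353 CPM in Ter119pos in WT, a difference of 6.71 (SE 0.44, adjusted p = 3.88e-06). In the other direction Cadm3, a cell adhesion gene, was at 7.7 and 7.25 CPM in Ter119pos KO and 109 and 86.9 CPM in Ter119pos WT, a difference of -3.84 (SE 0.51, adjusted p = 1.19e-04). Apol8, an apolipoprotein L gene, differed by -3.61 (SE 0.25, adjusted p = 5.04e-06). Aim2, a cytosolic DNA sensor, fell in KO (-1.13) and rose in WT (2.17); the KO call was lost without the Ter119neg library of mouse 2 (-0.77, adjusted p = 0.0609) and without both of its libraries (-0.56, adjusted p = 0.245).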

How the data were processed

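RNA of sorted E14.5 fetal liver cells was made into stranded total RNA libraries after removal of ribosomal RNA, per the labels' protocols. STAR 2.5.3 and RSEM on GRCm38 (mm10) are tools and build named in the submitters' processing notes. Neither a version of RSEM nor the gene annotation it used is recorded there or in the labels. The authors deposited RSEM expected counts per gene, which were rounded here to whole counts for 45706 genes. Gene positions and lengths are from GENCODE M21, which held 45143 of them.

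The 8 fetal libraries were fitted with edgeR 4.0.16 (R 4.3.3): filterByExpr, TMM, 1 mean per group and quasi-likelihood tests with Benjamini-Hochberg adjustment over 15566 genes, leaving 4 residual degrees of freedom. Contrasts were Ter119pos minus Ter119neg in KO, in WT, and their difference. Library letters A and B of KO are mice 1 and 2, each giving both fractions. Deviations of the fractions of a KO mouse correlated at 0.31 across genes, and those of mouse 4 in WT at -0.15. The fit with the mouse as a block leaves 1 residual degree of freedom. Its WT fraction difference rests on mouse 4 alone, since no other WT mouse gave both fractions.

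Alternatives were other scalings, filters, DESeq2 1.42.0, limma-voom 3.58.1, the block, and libraries left out, with 2 added after seeing the data (protein-coding totals, length trend). The procedure was tested on simulated data. Named genes were Prmt5, the 12 called genes per direction with the largest fold change at a mean of at least 5 CPM and fractions that do not overlap, the most abundant genes, up to 4 members of each list with the smallest p, all members of small lists and of 4 others, and 8 genes per direction for the difference from WT, with unnamed gene models left out; not every such gene is printed, and some are not reported here. Promoters on chromosome 18 were left out, and those with an annotated exon in the window were passed over, a step added to the rule. The members and lists were chosen with earlier results of these data known.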

Additional observations from a re-analysis of the deposited data

Results flagged for a closer look

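The difference between fractions itself differed between KO and WT, by edgeR's quasi-likelihood test, for 73 of the 117 genes named above, 38 with a higher and 35 with a lower value in KO. Each value below is the KO minus the WT log2 fold change of Ter119pos over Ter119neg, and adjusted p ran from 2.20e-06 to 0.0446. For 9 genes both genotypes were called in opposite directions, namely Tubb3, Tek, Esam, Zfp36, Cdkn1a, C1qc, Stab1 and Bax, higher in Ter119pos KO, and Aim2, lower there. By total counts alone the KO direction turned for Tek (-0.34), Esam (-0.03), Stab1 (-0.58) and Bax (-1.03), and by protein-coding totals for Bax (-0.26), so for these the opposite direction depends on the scaling. For Cdkn1a the WT libraries of the fractions overlapped, so its WT direction is uncertain. With the mouse as a block, where WT rests on mouse 4 alone, the Cdkn1a difference was 2.45.

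Among genes higher in the KO difference, globins and iron genes were Ftl1 2.34, Hbb-y 2.32, Hba-x 2.09 and Hbb-bh1 1.83. Macrophage, vessel and progenitor genes were Hmox1 5.50, Tek 5.49, Esam 4.89, C1qc 3.13, Stab1 2.69, Lgmn 2.66, Mrc1 2.57, Adgre1 1.58, Gp5 1.53, Eng 1.30, Cd34 0.92 and Kit 0.68. Cell cycle, p53, methyltransferase and repair genes were Cdkn1a 3.83, Prmt5 1.67, Bax 1.12, Fance 0.73, Ccnd3 0.67, Prmt1 0.65 and Clns1a 0.50. Prmt5 is the deleted gene and was low in both KO fractions (-0.05 between them), so its value mirrors the WT difference of -1.72. Signalling, stress and metabolic genes were Zfp36 4.37, Oasl2 3.13, Slc2a3 3.06, Hsd3b6 1.54, Blvrb 1.14, Pklr 1.03 and Stat5a 0.70. The rest were Rnu3b2 7.62, Tubb3 6.71, Chga 3.11, Rplp2 1.91, Hist1h1c 1.35, Klf1 0.59, Slc25a39 0.58 and Hnrnpa0 0.50.

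Among genes lower in the KO difference, globin, heme, iron and membrane genes of red cells were Tfrc -0.71, Ncoa4 -0.76, Hba-a1 -1.12, Mpp1 -1.29, Rhd -1.31, Dmtn -1.74, Tmod1 -1.74, Slc4a1 -1.76, Alas2 -1.89 and Slc25a37 -1.94. Transcription factors and genes of erythropoietin signalling were Pim1 -0.60, Lmo2 -0.70, Tal1 -0.80, Epor -0.91, Bcl11a -1.09, Bcl2l1 -1.14, Foxo3 -1.33, Jak2 -1.59, Socs3 -1.64 and Sox6 -2.05. Cell cycle, repair and stress genes were Rrm2 -0.61, Dusp1 -0.96, Srsf5 -1.08, Rad50 -1.16, E2f2 -1.17, Btg2 -1.36, Brca1 -1.64 and Mki67 -2.23. The ubiquitin-conjugating enzyme gene Ube2l6 had -1.49. Granule genes and others were Elane -1.31, Lcn2 -1.57, Ngp -1.98, Aim2 -3.29, Apol8 -3.61 and Cadm3 -3.84.

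By total counts alone the difference was no longer called in the same direction for 16 of these genes: Bax, Blvrb, Ccnd3, Cd34, Clns1a, Eng, Fance, Gp5, Hnrnpa0, Hsd3b6, Kit, Klf1, Pklr, Prmt1, Slc25a39 and Stat5a. Other named genes, not called in the main fit, were then called, all with a lower value in KO. They were Alas1, Atg4d, Bnip3l, Bpgm, Camp, Car2, Cdc25b, Cdkn1b, Ctsg, Gata1, Hbb-bs, Mcl1, Mpo, Nfe2, Slc2a1, Trim10, Ube2c, Ube2h, Ube2o, Uros and Wdr77. With the mouse as a block the WT side of the difference rested on mouse 4 alone, since no other WT mouse gave both fractions. In that fit the difference was no longer called for Clns1a, Elane and Hnrnpa0. It was 0.86 for Apob, -0.39 for Gata1, -1.01 for Hbb-bs, -0.48 for Ube2o and 1.5 for Vim, values without replication in WT. With the transcript length trend removed it was no longer called for Fance, Gp5, Hsd3b6, Klf1, Slc25a39 and Tfrc (adjusted p from 0.0503 to 0.199), and with DESeq2 for Fance, Hnrnpa0 and Ngp (adjusted p from 0.0581 to 0.0865). The U3 gene Rnu3b2 shares its reads with identical copies.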

How the results depend on the processing

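The number of genes called between KO fractions was 9746. Leaving out 1 KO library at a time gave 8401 to 8696, leaving out both libraries of mouse 1 or mouse 2 gave 7202 and 7719, and other tools, filters and TMM variants gave 8600 to 10080. Dropping TMM moved the split. By total counts alone 921 genes were called higher and 12270 lower, and by protein-coding totals without globins, chosen after seeing the data, 2049 and 9903. Of genes called in the main result, 2157 and 846 then reversed. With these totals the scaling assumes that equal totals mean equal RNA, while TMM assumes that most genes do not differ; which holds was not tested.

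The mouse pairs the KO fractions, and the replicate block gave 10294 called genes, of which 9587 shared direction and call with the fit without it. No such count is given for the difference from WT, since the WT side of the blocked fit rests on mouse 4 alone. The block changed no call between KO fractions among named genes except that of Adgre1.

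Under total counts alone the KO log2 fold change reversed for Adgre1 (-1.32), Bax (-1.03), Bbc3 (-0.059), Brca1 (-0.68), Epor (-0.11), Esam (-0.029), Gata1 (-0.22), Jak2 (-0.62), Lmo2 (-0.28), Rplp2 (-0.0295), Srsf5 (-0.59), Stab1 (-0.58) and Tek (-0.34). By protein-coding totals it reversed for Adgre1 (-0.55) and Bax (-0.26). The near-zero value of Prmt5 became 0.0091 with RLE, 0.10 with TMM over protein-coding genes, 0.0108 with DESeq2, 0.073 without globin genes and 0.0071 with the length trend removed. It ran from -0.27 to 0.17 when 1 library was left out, and was 0.21 without both libraries of mouse 1. Of 117 named genes, 95 kept call and direction under all alternatives run, and the cause of the changes was not tested. With 2 mice a group, depth limits the rarest genes. The p-values of the main fit rest on a spread between libraries pooled over all groups, WT included, and do not use the pairing of fractions by mouse.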
